A study of Mus musculus with 16 samples.

Results

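The genes described here are 44 antiviral interferon-stimulated genes of the mouse, the effectors and sensors that cells switch on when type I interferon reaches them. They were chosen by name, with earlier results of these data known. The guanylate-binding proteins and the transcription factors of the pathway were left out, and each name matched 1 of the 49585 genes in the files. Poly(A) RNA was sequenced from CD45+ cells, the cells of the blood lineage that carry this surface protein, from the bone marrow (BM) and the spleen (SP) of C57BL/6J mice aged 12 weeks. All mice carried Dbh-Cre, which restricts a Cre-dependent virus to neurons that make noradrenaline or adrenaline, and all received clozapine N-oxide (CNO) 4 h before the cells were collected. One set of mice had AAV-DIO-hM3Dq-mCherry injected on both sides of the VLM in the brainstem, which gives those neurons hM3Dq, a designer receptor that CNO activates. The control set had AAV-DIO-mCherry, which gives the fluorescent protein alone. Each tissue and virus had 4 libraries, numbered 5 to 8 with hM3Dq and 1 to 4 with mCherry, for 16 in all. The question behind the comparisons is how leukocytes in the 2 tissues respond when these neurons fire. Nothing in the labels ties a number to 1 mouse in both tissues or tells whether mice were pooled, so p-values measure only the spread between these samples, which may be technical.

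Type I interferons bind a receptor that nearly every cell carries, and its kinases JAK1 and TYK2 start a signal to the nucleus. There a complex that contains IRF9 binds a short DNA element, the interferon-stimulated response element (ISRE), before the antiviral genes. The products cut or trap viral RNA, block viral entry, starve viruses of nucleotides or tag proteins with the ubiquitin-like ISG15, and even without infection a low tonic interferon signal keeps them expressed in blood cells. The receptor hM3Dq sits in brain neurons, so its transcript is no check on these cells. Assigned fragments per library, as recovered from the values, ranged from 11.34 to 16.96 megafragments (M). Ptprc, which encodes CD45, was at 27.8 to 44.8 FPKM (fragments per kilobase of exon and M assigned fragments) in the marrow libraries and at 66.2 to 93.5 in the spleen libraries. Haemoglobin transcripts took 0.391% to 2.84% of the fragments in marrow and 0.133% to 1.68% in spleen, so erythroid RNA was present in all libraries. The lowest shares were in hM3Dq 5 and 6 of the marrow and in hM3Dq 6 and mCherry 2 of the spleen.

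A total of 22 of the 44 genes lie in 8 clusters, defined as members within 200 kb of each other (GRCm38, GENCODE M21). The IFIT genes Ifit2, Ifit3, Ifit3b and Ifit1 fill chr19:34550694-34650009, and Oas2, Oas3, Oas1g and Oas1a lie in chr5:120730333-120907521. Promoter windows of RefSeq (GRCm38.p6, 250 bases before to 50 after a start) were found for 33 members. An ISRE core, searched as 2 copies of GAAA with 2 bases of any kind between them, or of TTTC for the other strand, with overlapping matches kept, occurred in the windows of 17 of the 33 (51.5%), against 3.99% of 27025 genes. A total of 7 members had more than 1 such core before the start. The stretches below were chosen from the 13 members with a core before the start, so they do not stand for all genes that fell. Among those shown, Rsad2 and Oas1g passed the test described below in neither tissue. Usp18, Ifi27l2a and Parp9, which fell in spleen, had no promoter window. The stretches are given 5′ to 3′ on the strand of the gene, with the ISRE cores in capitals:
Isg15, chr4:156200850-156200921, minus strand: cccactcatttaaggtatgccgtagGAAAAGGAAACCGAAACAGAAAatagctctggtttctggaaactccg
Oas3, chr5:120777700-120777759, minus strand: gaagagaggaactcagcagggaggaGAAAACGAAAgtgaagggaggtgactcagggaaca
Oas1a, chr5:120907526-120907570, minus strand: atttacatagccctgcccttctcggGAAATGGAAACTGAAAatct
Oas1g, chr5:120887614-120887656, minus strand: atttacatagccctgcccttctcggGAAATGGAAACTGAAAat
Bst2, chr8:71537562-71537627, minus strand: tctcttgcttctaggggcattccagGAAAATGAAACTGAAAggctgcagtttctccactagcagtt
Rsad2, chr12:26456538-26456597, minus strand: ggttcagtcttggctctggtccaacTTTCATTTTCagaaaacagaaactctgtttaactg
Ifit1, chr19:34640760-34640838, plus strand: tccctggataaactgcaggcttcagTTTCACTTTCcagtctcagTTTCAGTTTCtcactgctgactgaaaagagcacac
Ifit3, chr19:34583348-34583441, plus strand: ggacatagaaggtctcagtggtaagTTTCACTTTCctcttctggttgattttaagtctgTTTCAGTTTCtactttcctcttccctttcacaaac
Ifit3b, chr19:34607744-34607837, plus strand: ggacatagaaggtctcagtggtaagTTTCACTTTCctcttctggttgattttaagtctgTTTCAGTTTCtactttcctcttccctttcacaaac

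Isg15 has 3 cores that overlap each other, 78, 72 and 66 bases before the start, and Oas1a, Oas1g and Bst2 each have 2 overlapping ones. The 94 bases shown for Ifit3 and Ifit3b are identical, and so are the 43 bases that Oas1a and Oas1g share. These 2 gene pairs are also near-copies in their exons: 51.2% of the 50-base words of Ifit3 occur in another gene, mostly Ifit3b, and 57.6% of those of Oas1a occur in Oas1g. How fragments that match both copies were counted is not given in the sources used here, so the split within each pair is uncertain. In all, 10 members share over 10% of their 50-base words with another gene, among them Ifi209 with 33.7%. A match to the ISRE core is a match of letters, not a measured binding site.

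In spleen most of the interferon-stimulated genes fell with hM3Dq, and in marrow few passed the test, although nearly all changes lay below 0 there too. All 44 had enough reads to be tested in both. In bone marrow 5 of the 44 fell (adjusted p below 0.05 in limma) and none rose, beside 4.76% of all 16103 genes called in either direction, 1.75% lower and 3.01% higher. In spleen 29 of the 44 fell and none rose, beside 8.1% of 17073 genes called, 4.72% lower and 3.39% higher. At an unadjusted p below 0.05 there were 25 members in marrow and 41 in spleen, beside 23.8% and 26.1% of all genes. The log2 change lay below 0 for 43 of 44 members in each tissue (51.6% of all genes in marrow and 54.5% in spleen), with a median of -0.47 in marrow and -0.52 in spleen, where the medians over all genes tested were -0.01 and -0.03. The FPKM values of the hM3Dq libraries lay wholly below those of the mCherry libraries for 9 members in marrow (3.81% of all genes) and for 25 in spleen (8.94%). In these sorted but mixed cells, fewer cells of a type that expresses a gene and less RNA per cell cannot be told apart.

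**Figure D1:**
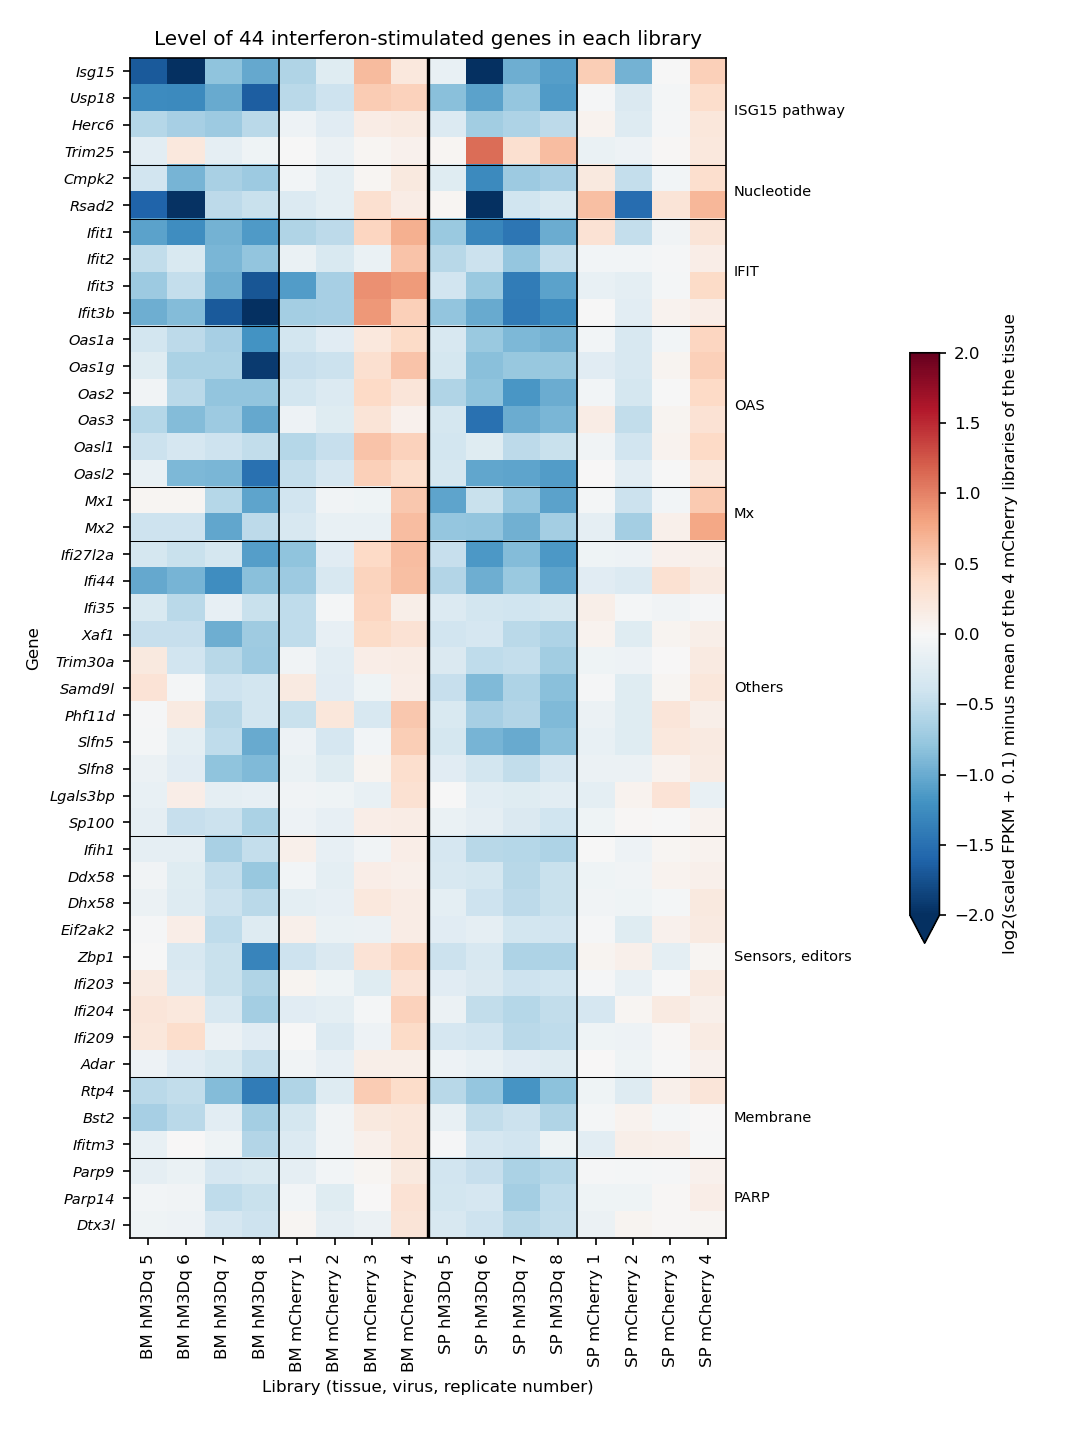
Level of each of the 44 genes (rows, grouped by role) in each of the 16 libraries (columns), as the difference in log2(scaled FPKM + 0.1) from the mean of the 4 mCherry libraries of the same tissue. Blue is lower, red higher, and the scale stops at 2 either way, which the values of Isg15, Rsad2 and Ifit3b exceed in single libraries (down to -2.92). The hM3Dq columns are mostly blue in both tissues, mCherry 3 and 4 of the marrow are redder than mCherry 1 and 2, and Trim25 is red in hM3Dq 6, 7 and 8 of the spleen.

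The counts of called genes rested on single libraries. In marrow, the 5 became 1 without hM3Dq 6, 2 without hM3Dq 8, 3 without mCherry 3, 1 without mCherry 4 and 8 without mCherry 1. In spleen, the 29 became 14 without hM3Dq 7, 6 without hM3Dq 8, and 11, 12 and 12 without mCherry 1, 3 and 4. All genes called fell as well, from 4.76% to between 1.72% and 4.41% in marrow, and from 8.1% to between 2.41% and 5.14% in spleen apart from the removal of hM3Dq 5 (10.5%). Whichever library was left out, Oas3 was called in marrow, and Usp18, Ifit2, Ifit3b, Ifi27l2a, Parp9 and Dtx3l were called in spleen.

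The libraries of 1 group were not alike. Against the mCherry mean, the median member was at -0.25, -0.21, 0.14 and 0.29 on the log2 scale in mCherry 1 to 4 of the marrow and at -0.18, -0.37, -0.54 and -0.70 in hM3Dq 5 to 8. Thus mCherry 1 and 2 of the marrow sat within the range of the hM3Dq libraries on this summary. In spleen it was at -0.05, -0.20, 0.03 and 0.18 in mCherry 1 to 4 and at -0.33, -0.50, -0.61 and -0.61 in hM3Dq 5 to 8, with no overlap. The library mCherry 4 held the highest FPKM of the 8 for 25 members in marrow and for 37 in spleen.

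**Figure D2:**
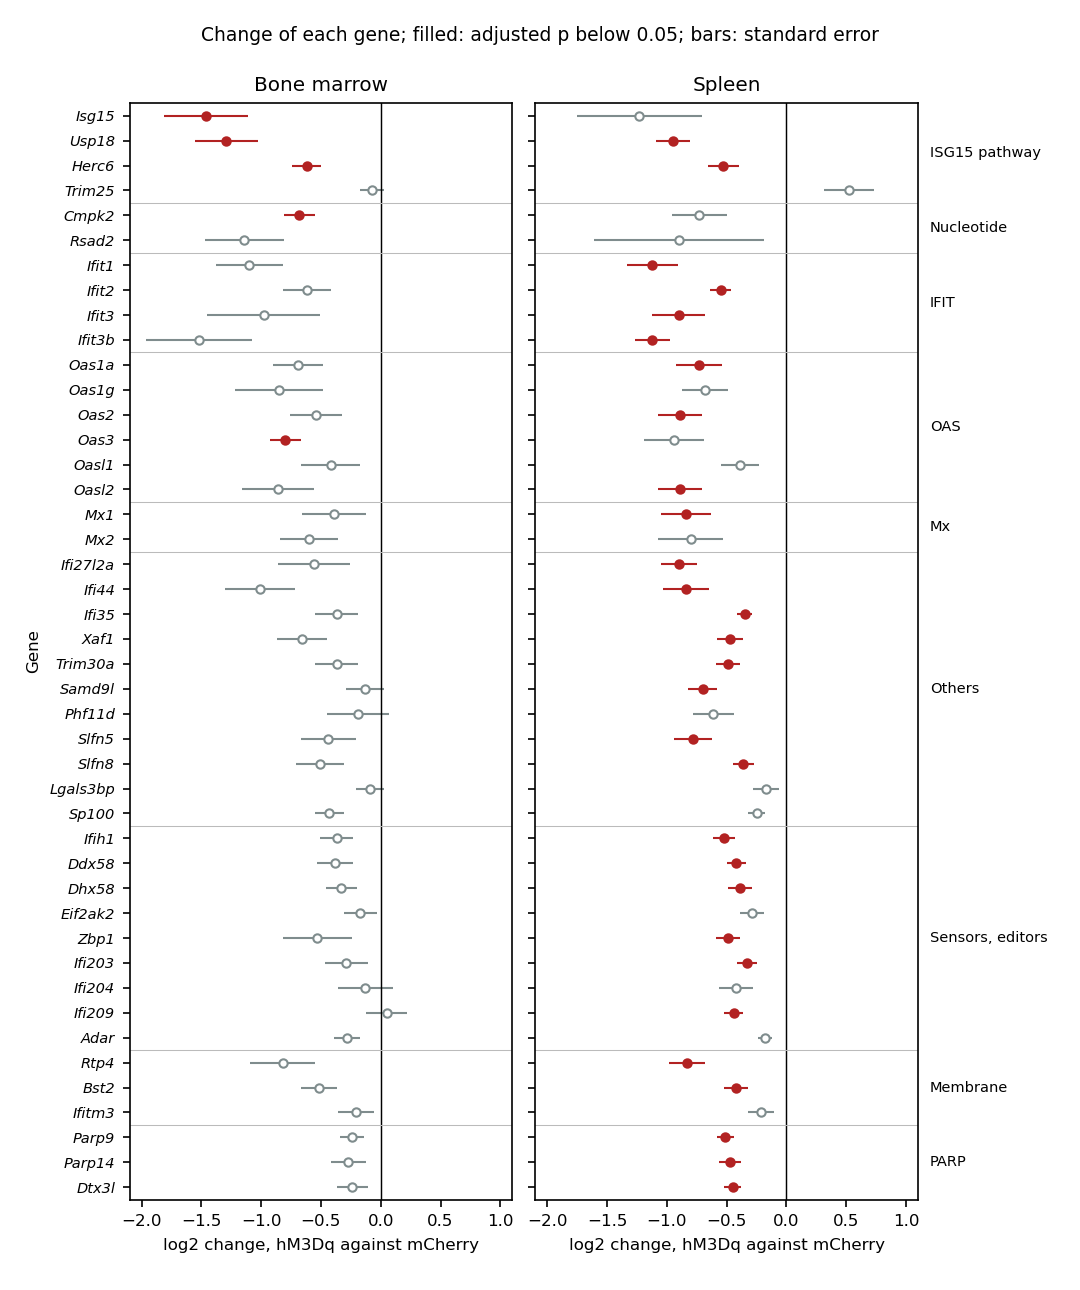
Change of each of the 44 genes with hM3Dq against mCherry in bone marrow (left) and spleen (right), on the log2 scale, with its standard error (bars, 4 libraries per group). Filled points have an adjusted p below 0.05, which 5 genes reach in marrow and 29 in spleen; only Ifi209 in marrow and Trim25 in spleen lie to the right of 0.

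Isg15, the ubiquitin-like modifier, and the genes that attach or remove it made up 3 of the 5 members that fell in marrow, though each of these calls was lost without some single libraries. Isg15 (ENSMUSG00000035692, chr4:156199424-156200818) was at 18.4, 11.6, 31.4 and 27.8 FPKM in hM3Dq 5 to 8 of the marrow and at 34.2, 47.8, 83.0 and 64.5 in mCherry 1 to 4. Every hM3Dq library lay below every mCherry library, the log2 change was -1.46 ± 0.35 (standard error), or 2.75-fold lower, and the adjusted p was 0.0469. In spleen it was at 35.7, 6.76, 20.3 and 18.6 FPKM with hM3Dq and at 56.6, 20.1, 38.4 and 57.0 with mCherry. These groups overlapped and the change of -1.23 ± 0.52 did not pass the test (adjusted p = 0.176). The marrow call was lost without any 1 of hM3Dq 5, 6 and 8 and mCherry 2, 3 and 4 (adjusted p 0.0585 to 0.116, change -1.17 to -1.60).

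Usp18 (ENSMUSG00000030107, chr6:121245906-121270917), the protease that removes ISG15 and also damps the interferon receptor, fell in both tissues. Its marrow values were 2.96, 2.90, 3.30 and 2.15 FPKM in hM3Dq 5 to 8 and 4.31, 5.14, 9.31 and 9.29 in mCherry 1 to 4, a change of -1.29 ± 0.26 (adjusted p = 0.0245). The hM3Dq libraries sat close together below all controls, while the controls split into a lower and a higher pair. The spleen values were 4.71, 4.36, 4.97 and 3.83 FPKM against 8.46, 6.81, 8.01 and 11.1, a change of -0.95 ± 0.14, or 1.93-fold lower (adjusted p = 0.0103), again with no overlap. In marrow the call was lost without hM3Dq 6 (adjusted p = 0.0601), hM3Dq 8 (0.0571) or mCherry 4 (0.0668).

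Herc6, the main ligase for ISG15 in mice, was the other member called in both tissues. It was at 2.65, 2.43, 2.18 and 2.59 FPKM with hM3Dq in marrow and at 3.23, 3.21, 3.98 and 4.20 with mCherry, a change of -0.62 ± 0.12 (adjusted p = 0.0240), and the groups stood apart. The spleen values were 4.75, 3.87, 3.76 and 4.04 against 6.13, 4.70, 5.54 and 6.96, a change of -0.53 ± 0.13 (adjusted p = 0.0437), and hM3Dq 5 lay just above mCherry 2. Its marrow call was lost without hM3Dq 6 or 7 or mCherry 3 or 4 (adjusted p 0.0534 to 0.0775), and its spleen call without any 1 of 6 libraries, all but hM3Dq 5 and mCherry 2 (0.0920 to 0.112). A gene model on the same strand, Gm45193, covers 13.7% of its exon bases.

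Trim25, a ubiquitin ligase that acts on RIG-I and can also attach ISG15, went against the rest in spleen. It was at 27.6, 64.2, 34.2 and 41.7 FPKM in hM3Dq 5 to 8 and at 24.9, 24.6, 26.9 and 32.2 in mCherry 1 to 4. Of the hM3Dq libraries, 3 lay above all controls and hM3Dq 6 was far above them, but the change of 0.52 ± 0.21 did not pass the test (adjusted p = 0.151). In marrow the values were 19.2, 25.4, 18.3 and 20.1 against 19.4, 19.6, 20.8 and 22.1, with overlapping groups and a change of -0.07 ± 0.10.

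The IFIT genes, whose products bind viral RNA that lacks the host's cap methylation, had the lowest median change of any role with more than 2 genes, -1.04 in marrow and -1.01 in spleen. None of the 4 passed the test in marrow and all 4 fell in spleen, where none of their groups overlapped. Ifit3b (ENSMUSG00000062488, chr19:34607970-34613401) had the smallest p of the 44 in spleen, at 4.38, 4.14, 2.82 and 3.15 FPKM with hM3Dq against 7.74, 6.49, 7.90 and 8.67 with mCherry. The groups stood well apart, with a change of -1.12 ± 0.15, or 2.17-fold lower (adjusted p = 0.00646). Its marrow values were 3.83, 4.11, 2.15 and 1.19 FPKM against 4.18, 4.57, 12.7 and 9.99. There hM3Dq 6 came within a small margin of mCherry 1, and the change of -1.52 ± 0.44 missed the threshold (adjusted p = 0.0842).

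Its near-copy Ifit3 was at 15.7, 13.5, 7.85 and 9.91 FPKM with hM3Dq and at 18.9, 17.6, 19.5 and 27.8 with mCherry in spleen, a change of -0.90 ± 0.22 (adjusted p = 0.0403). That call was lost without any 1 of 7 libraries, all but hM3Dq 5 (adjusted p 0.0649 to 0.110). In marrow Ifit3 was at 7.82, 9.26, 6.11 and 3.74 against 5.26, 7.82, 22.3 and 22.2, so that mCherry 3 and 4 were high and mCherry 1 and 2 lay among the hM3Dq libraries (change -0.98 ± 0.47, adjusted p = 0.243). Ifit1, the founding member of the family, was at 4.89, 3.58, 2.98 and 4.12 FPKM against 10.2, 5.79, 7.64 and 10.2 in spleen, a change of -1.12 ± 0.21 (adjusted p = 0.0185). In marrow all its hM3Dq libraries, 3.89, 3.40, 3.94 and 3.58 FPKM, were below the controls, 4.74, 5.43, 10.1 and 12.8, with a change of -1.10 ± 0.28 (adjusted p = 0.0567). The spleen call of Ifit1 was lost without hM3Dq 8 (adjusted p = 0.0502), mCherry 1 (0.0563) or mCherry 4 (0.0524).

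Ifit2, which binds AU-rich RNA, was at 7.38, 8.84, 6.36 and 7.84 FPKM with hM3Dq and at 10.6, 10.2, 10.4 and 12.3 with mCherry in spleen, a change of -0.55 ± 0.09 (adjusted p = 0.0131). The controls were tight and the groups did not overlap. The marrow values were 5.41, 6.12, 3.74 and 4.24 against 6.15, 5.91, 6.31 and 10.7, where hM3Dq 6 lay above mCherry 2 and the change of -0.62 ± 0.20 did not pass (adjusted p = 0.109).

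The oligoadenylate synthetases make the messenger that activates RNase L, which degrades RNA, and the OAS-like proteins Oasl1 and Oasl2 are their relatives. All 6 members lay below 0 in both tissues, with a median of -0.74 in marrow and -0.81 in spleen. Oas3 (ENSMUSG00000032661, chr5:120753098-120777661) was the 1 of them that fell in marrow. It was at 18, 14.4, 15.0 and 12.5 FPKM in hM3Dq 5 to 8 and at 21.9, 21.4, 29.1 and 26.4 in mCherry 1 to 4, a change of -0.80 ± 0.13 (adjusted p = 0.0152). Its spleen values were 7.97, 3.88, 5.11 and 5.42 against 11.4, 7.09, 10.3 and 12.9. There hM3Dq 5 lay above mCherry 2 and the change of -0.94 ± 0.25, larger in size than in marrow, missed the threshold (adjusted p = 0.0538).

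Oas1a, Oas2 and Oasl2 fell in spleen. Oas1a was at 12.0, 9.87, 8.10 and 7.85 FPKM with hM3Dq and at 14.7, 11.8, 14.2 and 21.1 with mCherry, a change of -0.73 ± 0.19 (adjusted p = 0.0475), with hM3Dq 5 just above mCherry 2. That call was lost without any 1 of 6 libraries, all but hM3Dq 5 and mCherry 2 (adjusted p 0.0876 to 0.126). In marrow Oas1a was at 18.7, 16.5, 14.2 and 10.1 against 16.5, 19.6, 25.3 and 29.6, with overlap and a change of -0.69 ± 0.21 (adjusted p = 0.0917). Oas2 and Oasl2 both changed by -0.89 in spleen, while Oas1g (-0.68) and Oasl1 (-0.39) did not pass there. Of 8 removals of 1 library, the spleen call was lost in 4 for Oas2 and 5 for Oasl2.

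Cmpk2 and Rsad2, neighbours on chromosome 12, act on nucleotides: viperin, the product of Rsad2, turns CTP into a chain terminator, and Cmpk2 supplies the nucleotide for it. Cmpk2 fell in marrow, at 27.9, 18.8, 21.6 and 21.1 FPKM with hM3Dq against 30.9, 30.3, 34.1 and 39.3 with mCherry, a change of -0.68 ± 0.13 (adjusted p = 0.0204). All hM3Dq libraries were below all controls; the call was lost without hM3Dq 6 (adjusted p = 0.0507), hM3Dq 8 (0.0515) or mCherry 4 (0.0621). Its spleen values were 10.3, 5.49, 7.39 and 7.74 against 14.1, 8.58, 11.5 and 15.9, where hM3Dq 5 lay above mCherry 2, with a change of -0.73 ± 0.23 that missed the threshold (adjusted p = 0.0915). Rsad2, chosen after its values were seen, passed in neither tissue, with changes of -1.14 ± 0.33 in marrow (adjusted p = 0.0826) and -0.90 ± 0.71 in spleen (adjusted p = 0.459).

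The levels of Isg15 and Rsad2 moved with the haemoglobin share of the library. In marrow the share was 0.564%, 0.391%, 2.27% and 2.38% in hM3Dq 5 to 8 and 1.34%, 2.20%, 2.84% and 1.67% in mCherry 1 to 4, and Rsad2 was at 17.3, 13.1, 34.0 and 37.3 FPKM against 38.5, 43.7, 59.7 and 54.8. In spleen the share was 1.21%, 0.133%, 1.17% and 1.33% against 1.68%, 0.569%, 1.30% and 1.40%, and Rsad2 was at 34.1, 4.73, 25.5 and 27.3 FPKM against 51.1, 11.3, 39.1 and 54.8. The library lowest in haemoglobin in each tissue, hM3Dq 6, was the lowest in both genes. When the fit held the haemoglobin share as a term, the marrow change of Isg15 was -0.99 (adjusted p = 0.0464) and that of Rsad2 -0.65 (adjusted p = 0.0374), and the spleen changes were -0.77 (adjusted p = 0.106) and -0.24 (adjusted p = 0.563). With the 2 libraries lowest in haemoglobin left out of each tissue, a choice made after the data were seen, Isg15 was at a change of -0.92 in marrow (adjusted p = 0.180) and -1.06 in spleen (adjusted p = 0.0677), and Rsad2 at -0.48 (adjusted p = 0.204) and -0.73 (adjusted p = 0.0430). The part of haemoglobin, or of the cells that carry it, in these results was not tested further.

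Other members moved with this term by differing amounts. Oas3 was at -0.82 in marrow (adjusted p = 0.0346), and Usp18 at -1.26 in marrow (adjusted p = 0.0629, no longer called) and -0.90 in spleen (adjusted p = 0.0176). The changes of Ifit3b in spleen (-1.13, adjusted p = 0.0118) and Ifi27l2a in spleen (-0.84, adjusted p = 0.0217) were close to -1.12 and -0.90 without it. Herc6 lost both its calls (adjusted p = 0.0553 in marrow and 0.0654 in spleen), and Mx1 lost its call in spleen (0.0608). Several marrow changes that had not passed lay farther from 0 with the term and still did not pass, as for Mx1 (-0.67, from -0.39), Slfn5 (-0.67, from -0.44), Ifi204 (-0.38, from -0.13), Eif2ak2 (-0.34, from -0.17), Samd9l (-0.32, from -0.13) and Ifit3b (-1.84, from -1.52). Besides Rsad2, calls were gained with the term in marrow for Ifih1 (-0.52, adjusted p = 0.0428) and Slfn8 (-0.73, adjusted p = 0.0494). In spleen a call was gained for Oas3 (-0.75, adjusted p = 0.0441). The number of members called with the term was 6 in marrow and 20 in spleen. The erythroid marker genes had median changes of -0.96 in marrow and -0.69 in spleen, none of the 10 tested passed in either tissue, and their summed FPKM ran from 5380 to 32600 with hM3Dq and from 18700 to 38900 with mCherry in marrow, and from 1810 to 18300 and from 7740 to 23200 in spleen.

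**Figure D3:**
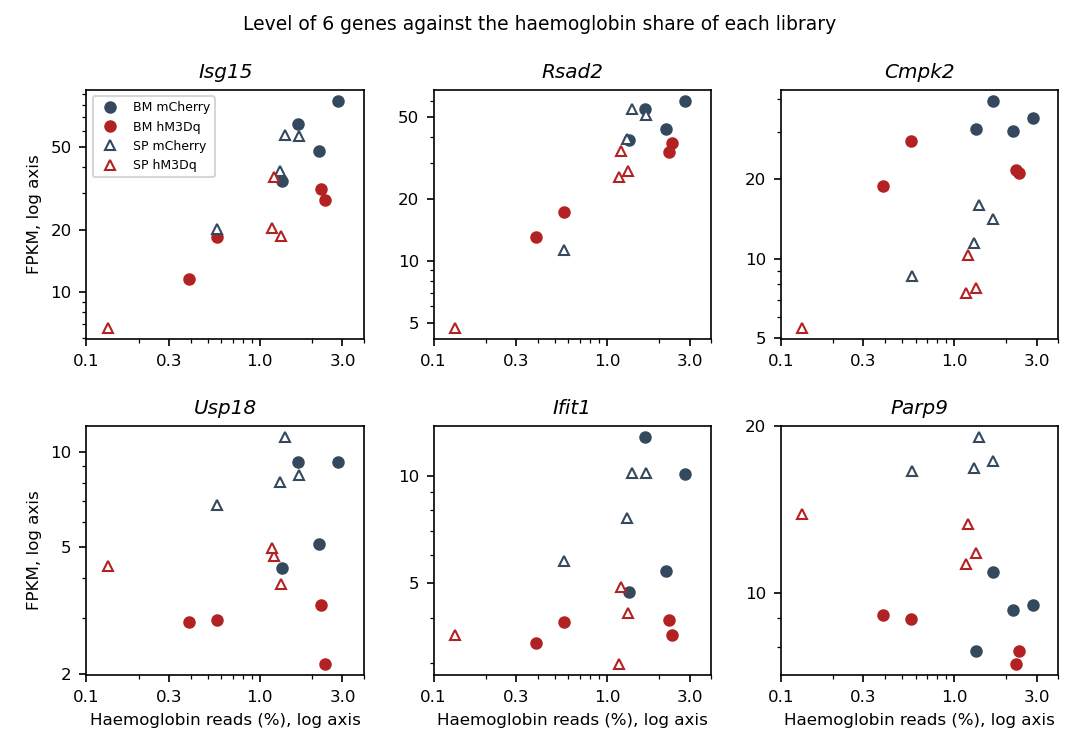
FPKM of 6 of the genes (vertical, log axis) against the share of fragments on haemoglobin genes in percent (horizontal, log axis), with 1 point per library; circles are bone marrow, triangles spleen, red hM3Dq and dark mCherry. Isg15 and Rsad2 climb from the library with 0.133% haemoglobin, where they are at 6.76 and 4.73 FPKM, while in that library Usp18 is at 4.36 and Parp9 at 13.9 FPKM, within the range of the other spleen hM3Dq libraries for Usp18 and at its top for Parp9.

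The Mx proteins are dynamin-like GTPases whose functional forms trap viral nucleoproteins. Whether these mice make functional Mx proteins was not examined. Mx1 fell in spleen by 0.84 on the log2 scale (adjusted p = 0.0480), and Mx2, at -0.80 there, did not pass (adjusted p = 0.105). The spleen groups of Mx1 overlapped, with hM3Dq 6 at 4.57 FPKM and mCherry 2 at 4.13. Its call was lost without any 1 of 6 libraries, all but hM3Dq 6 and mCherry 2 (adjusted p 0.0783 to 0.126). Neither passed in marrow, with changes of -0.39 for Mx1 and -0.60 for Mx2. Both were low, Mx2 at 0.345 to 1.29 FPKM over the marrow libraries.

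Among the 9 sensors and editors of nucleic acids, 6 fell in spleen and none passed in marrow, with medians of -0.42 and -0.29. Ifih1, which encodes the long duplex RNA sensor MDA5, was at 3.69, 3.48, 3.15 and 3.05 FPKM with hM3Dq and at 4.75, 4.29, 4.71 and 5.06 with mCherry in spleen, a change of -0.52 ± 0.09 (adjusted p = 0.0153). The groups stood apart; without hM3Dq 8 the adjusted p was 0.0531. In marrow Ifih1 was at 4.33, 4.23, 2.86 and 3.34 against 4.61, 4.14, 4.21 and 5.04, with overlap and a change of -0.37 ± 0.14 (adjusted p = 0.143). Ddx58, which encodes RIG-I, was at 12.2, 13.1, 10.4 and 11.3 FPKM against 14.5, 14.2, 15.6 and 16.8 in spleen, a change of -0.42 ± 0.08 (adjusted p = 0.0197). Its groups did not overlap there, and the call was lost without hM3Dq 8 (adjusted p = 0.0654), mCherry 3 (0.0569) or mCherry 4 (0.0572). In marrow it was at 9.11, 8.00, 6.39 and 5.38 against 8.08, 7.96, 9.55 and 9.64, with hM3Dq 5 among the controls (change -0.38 ± 0.15, adjusted p = 0.166).

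The other sensors called lower in spleen were Zbp1 (-0.49), which senses Z-form nucleic acid and triggers cell death, Dhx58 (-0.39), the regulator LGP2, and the HIN-200 proteins Ifi209 (-0.44) and Ifi203 (-0.33). Of 8 removals of 1 library, these calls were lost in 5 for Zbp1, 7 for Dhx58, 2 for Ifi209 and 6 for Ifi203. Ifi209 was the 1 member above 0 in marrow, at 31.9, 34.5, 23.3 and 22.3 FPKM with hM3Dq against 23.8, 21.6, 23.1 and 33.2 with mCherry. The marrow groups overlapped wholly, and its change of 0.05 ± 0.17 turned below 0 in 5 of the alternative fits. In spleen it was at 58.1, 61.7, 51.1 and 52.1 against 69.5, 66.8, 72.9 and 84.9, with no overlap (adjusted p = 0.0188).

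Eif2ak2, which encodes the kinase PKR that stops translation on duplex RNA, and Adar, which edits such RNA, passed in neither tissue. In spleen Eif2ak2 was at 8.98, 10.2, 8.25 and 8.14 FPKM with hM3Dq and at 10.5, 8.71, 10.9 and 12.3 with mCherry (change -0.29 ± 0.10, adjusted p = 0.117). In marrow it was at 11.7, 12.9, 7.73 and 9.52 against 11.2, 10.3, 9.98 and 12.3 (change -0.17 ± 0.14, adjusted p = 0.507). The groups overlapped in both tissues. Adar was at 19.2, 20.4, 17.8 and 17.5 FPKM against 21.1, 19.1, 20 and 22.7 in spleen (change -0.18 ± 0.06, adjusted p = 0.114) and at 13.4, 12.1, 10.8 and 9.86 against 12.0, 12.2, 14.2 and 14.7 in marrow (change -0.28 ± 0.11, adjusted p = 0.158). For Adar too the groups overlapped in both tissues. The library kit is not stated to mark strand, and 16.8% of the exon bases of Adar lie under Chrnb2 on the other strand, so reads of these genes cannot be told apart there.

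The genes that act at membranes differed among themselves. Bst2, which encodes tetherin, the protein that holds budding virus on the cell, was at 32.4, 28, 26.8 and 23.8 FPKM with hM3Dq and at 35.2, 36.8, 34.1 and 37.2 with mCherry in spleen. It fell by 0.42 ± 0.10 on the log2 scale (adjusted p = 0.0356), with no overlap, and lost the call without any 1 of 7 libraries, all but hM3Dq 5 (adjusted p 0.0769 to 0.0941). In marrow it was at 34.9, 37.8, 44.5 and 33.3 against 38.1, 50.3, 57.5 and 61.1, with mCherry 1 among the hM3Dq libraries (change -0.52 ± 0.15, adjusted p = 0.0809). Rtp4, a chaperone of membrane receptors that also restricts viruses, fell in spleen by 0.83 on the log2 scale (adjusted p = 0.0168). Without hM3Dq 8 its adjusted p was 0.0518.

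Ifitm3, which blocks viral fusion in endosomes and was the most abundant member in marrow, passed in neither tissue. It was at 361, 399, 352 and 256 FPKM with hM3Dq against 293, 364, 392 and 441 with mCherry in marrow (change -0.21 ± 0.15, adjusted p = 0.450). In spleen it was at 90.4, 80.1, 71.4 and 88.1 against 80.6, 98, 96.3 and 94.5 (change -0.21 ± 0.11, adjusted p = 0.265). Both sets of groups overlapped.

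Parp9, Dtx3l and Parp14 work in ADP-ribosylation, Parp9 and Dtx3l as 1 complex that modifies histones. All 3 fell in spleen. Parp9 (ENSMUSG00000022906, chr16:35938470-35972605) was at 13.3, 13.9, 11.3 and 11.8 FPKM with hM3Dq and at 17.3, 16.6, 16.8 and 19.1 with mCherry, a change of -0.51 ± 0.07 (adjusted p = 0.00812). Dtx3l was at 14.6, 14.9, 12.5 and 13.1 against 16.9, 18.6, 18.1 and 19.3, a change of -0.45 ± 0.07 (adjusted p = 0.0127). Both sets stood apart. Parp14 changed by -0.47 and lost its call in 4 of 8 removals of 1 library. The start regions of Parp9 and Dtx3l overlap on opposite strands, over 9.4% of the exon bases of Parp9 and 8.0% of those of Dtx3l.

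None of the 3 passed in marrow. Parp9 was at 8.96, 9.11, 7.45 and 7.85 FPKM with hM3Dq against 7.86, 9.30, 9.52 and 10.9 with mCherry (change -0.24 ± 0.10, adjusted p = 0.190). Dtx3l was at 9.15, 8.95, 7.11 and 6.93 against 8.75, 8.14, 8.10 and 10.9 (change -0.24 ± 0.13, adjusted p = 0.287). The groups overlapped for both.

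Of the 11 remaining members, 8 fell in spleen and none passed in marrow. Ifi27l2a, a small membrane protein that interferon induces strongly, had the highest mean level of the members in the spleen controls, at 76.2, 52.0, 58.3 and 47.6 FPKM with hM3Dq against 100, 95.8, 109 and 116 with mCherry. All hM3Dq libraries lay below the controls, with a change of -0.90 ± 0.15, or 1.87-fold lower (adjusted p = 0.0127). Its marrow values were 63.9, 59.1, 58.8 and 36.3 against 41.0, 66.0, 97.4 and 117, where mCherry 1 was lower than all hM3Dq libraries but hM3Dq 8 (change -0.56 ± 0.30, adjusted p = 0.286).

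Samd9l, which restricts poxviruses and growth of blood cells, was at 32.3, 26.5, 29.2 and 25.1 FPKM with hM3Dq against 44.2, 36.7, 44.6 and 53.5 in spleen. The groups stood apart, with a change of -0.70 ± 0.12 (adjusted p = 0.0158), and without hM3Dq 8 the adjusted p was 0.0535. The marrow values were 37.8, 30.1, 21.8 and 23.3 against 31.1, 25.5, 26.7 and 32.0, with a change of -0.13 ± 0.16 (adjusted p = 0.645) and full overlap. Ifi44 was low, at 0.464, 0.360, 0.409 and 0.309 FPKM against 0.632, 0.590, 0.933 and 0.893 in spleen (change -0.84 ± 0.19, adjusted p = 0.0327). It lost this call in 6 of 8 removals of 1 library. Its marrow values, 0.229, 0.247, 0.169 and 0.263 against 0.267, 0.413, 0.728 and 0.848, did not overlap either, but the change of -1.01 ± 0.29 missed the threshold (adjusted p = 0.0809).

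Sp100, a protein of nuclear bodies that silences viral DNA, was at 36.6, 29.6, 28.4 and 25.6 FPKM with hM3Dq in marrow against 33.7, 35.1, 41.2 and 42.8 (change -0.43 ± 0.12, adjusted p = 0.0675). In spleen it was at 54.0, 57.7, 49.1 and 45.9 against 57.0, 59.3, 57.6 and 64.8 (change -0.25 ± 0.07, adjusted p = 0.0681). Its groups overlapped by 1 hM3Dq library in each tissue. The spleen changes of the others called lower were -0.78 for Slfn5, -0.49 for Trim30a, -0.47 for Xaf1, -0.36 for Slfn8 and -0.35 for Ifi35. Of 8 removals of 1 library, the call was lost in 6 for Slfn5, 5 for Trim30a, 5 for Xaf1, 7 for Slfn8 and 2 for Ifi35. Phf11d (-0.61) and Lgals3bp (-0.17) did not pass.

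**Figure D4:**
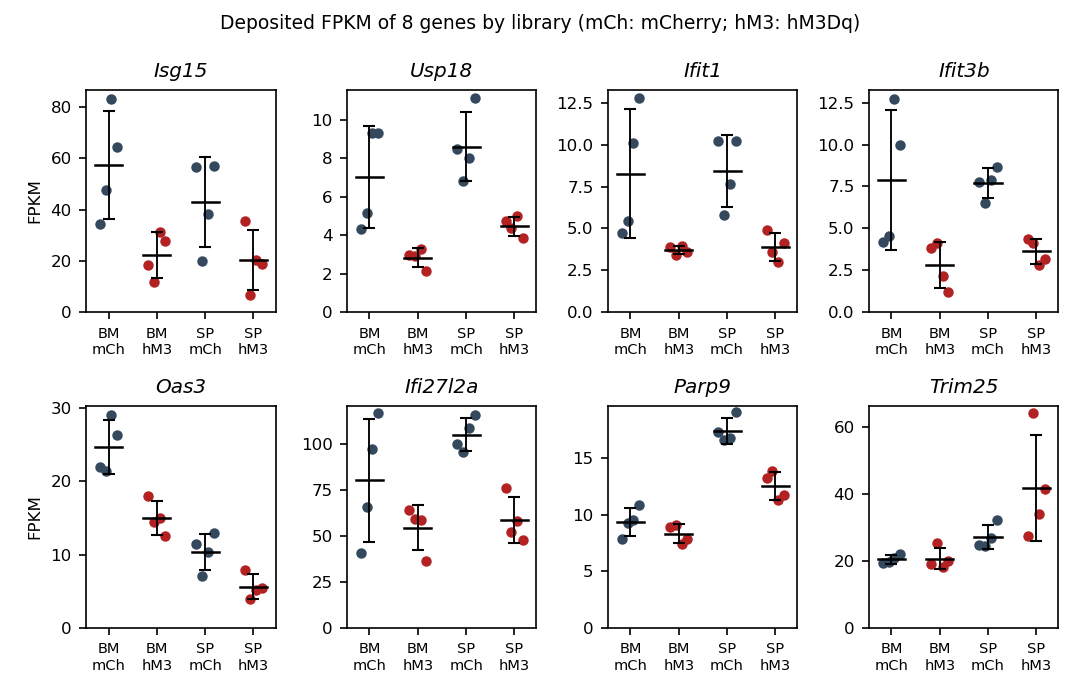
Deposited FPKM of 8 of the genes in every library (points; dark mCherry, red hM3Dq), with the group mean and SD (lines and bars, 4 libraries each; axes start at 0). Usp18 and Ifit1 have all red points below all dark points in both tissues, Parp9 and Ifi27l2a only in spleen, and Trim25 in spleen has its red points at 27.6 to 64.2 against 24.6 to 32.2.

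Genes that fell were found with and without an ISRE core in the window. Of the 17 members with an ISRE core in the window, 11 fell in spleen, and of the 16 matched members without one, 9 did. The median spleen change was -0.68 with and -0.46 without a core, and the marrow medians were -0.52 and -0.40. Neither difference was tested. The core of the glucocorticoid receptor's element, searched as ACANNNTGT on both strands, was in the window of 1 of the 33 members, Oasl1 (3.03%, against 7.90% of genes).

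No member passed a test for a change that differed between the tissues. The interaction over all 16 libraries called 0 of the 44 (adjusted p below 0.05 in limma), and 4 had an unadjusted p below 0.05, beside 0.1% and 9.0% of all 17984 genes. Those 4 were Samd9l, with a marrow change above the spleen change by 0.56 on the log2 scale, Ifi209 (0.49), Parp9 (0.27) and Trim25 (-0.59), with adjusted p of 0.429, 0.451, 0.530 and 0.475. The differences of the 44 ran from -0.59 to 0.56 with a median of 0.03, equal to that of all genes. The larger number of calls in spleen is thus not a tested difference between the tissues.

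Between the control libraries of marrow and spleen, members differed in both directions, as did all genes. The share of members called was not tested against that of all genes. In the mCherry libraries 11 members were higher in marrow and 16 higher in spleen, 27 of 44, beside 69.3% of all 16951 genes called (35.6% higher in marrow, 33.6% lower). Ifitm3 had the largest difference, at 293 to 441 FPKM in marrow and 80.6 to 98 in spleen, 4.9-fold higher in marrow after scaling (log2 2.29 ± 0.12, adjusted p = 5.11e-07). Cmpk2 (log2 1.74 ± 0.17, 3.34-fold), Oas3 (1.55 ± 0.18) and Oas1g (1.49 ± 0.27) followed, and of the OAS genes all but Oasl1 were higher in marrow.

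Of the 9 sensors and editors, 5 were lower and 3 higher in marrow, and all 3 ADP-ribosylation genes were lower there. Ifi203 was 3.3-fold lower in marrow (log2 -1.72 ± 0.12, adjusted p = 2.09e-06), at 11 to 16.4 FPKM against 47.8 to 62.6. Ifi209 (-1.25 ± 0.13), Zbp1 (-1.16 ± 0.19), Ddx58 (-0.50) and Adar (-0.35) were the other sensors and editors lower there. Ifi204, a neighbour of Ifi203 and Ifi209, went the other way (0.76), as did Dhx58 (0.38) and Eif2ak2 (0.34). The ADP-ribosylation genes were at -0.60 for Parp9, -0.78 for Parp14 and -0.73 for Dtx3l, and Slfn8, of the remaining members, was at -1.12 ± 0.13. Isg15, Usp18 and the IFIT genes were not called between the tissues, with differences from -0.49 (Ifit3) to 0.75 (Isg15). Spleen libraries were richer in T and B cell markers and marrow libraries in neutrophil markers, whose medians differed by -3.65, -3.43 and 4.72 on the log2 scale; their part in these differences was not tested. Without scaling for composition the median gene was -0.28 rather than 0.01, and the split among members became 8 higher and 22 lower in marrow.

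**Figure D5:**
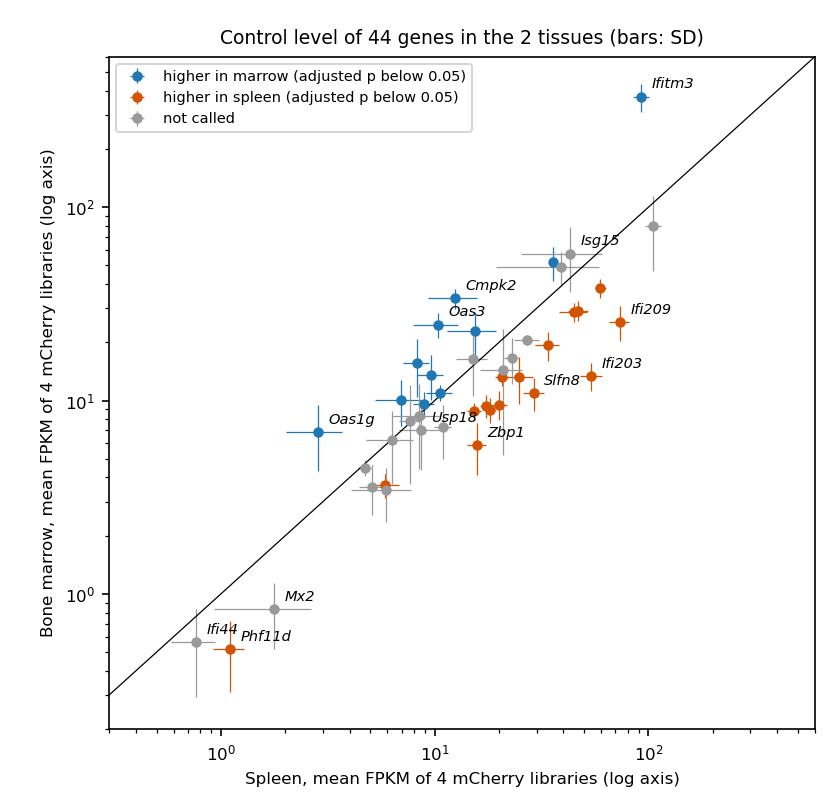
Mean FPKM of each of the 44 genes in the 4 mCherry libraries of bone marrow (vertical) and of spleen (horizontal), both log axes, with SD as bars and the line of equal level. Blue points (11 genes) were higher in marrow and orange points (16) higher in spleen at an adjusted p below 0.05; Ifitm3 stands far above the line and Ifi203, Ifi209 and Zbp1 below it.

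Of the interferons themselves little was seen: 16 of 21 ligand genes were at 0 in all 16 libraries, Ifnb1 and Ifna4 among them. Only Ifng had enough reads to be tested, in spleen but not within marrow. Ifng, which encodes the type II interferon, was at 0.510, 0.657, 0.778 and 0.456 FPKM with hM3Dq against 1.36, 1.17, 0.977 and 1.51 with mCherry in spleen, a change of -0.98 (adjusted p = 0.0173). Its untested marrow values were 0.244, 0.0598, 0 and 0.127 FPKM with hM3Dq against 0.261, 0.408, 0.264 and 0.391 with mCherry. A single fragment in a gene of 2 kilobases was worth 0.0295 to 0.0441 FPKM. It was worth more in shorter genes such as Ifnb1 (750 exon bases) and Ifna4 (561). Levels of the other ligands below the worth of 1 fragment were not detectable at this depth. Among receptors and signal carriers, Tyk2 (-0.34) and Irf9 (-0.30) fell in spleen, while Ifngr1 (0.72), Jak1 (0.33) and Jak2 (0.46) rose there, and the type I receptor genes Ifnar1 and Ifnar2 were not called.

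Of the 7 interferon regulatory factors, Irf7, which amplifies interferon production, fell in spleen (-0.68, adjusted p = 0.0188) and was at -0.71 in marrow (adjusted p = 0.0689). Among 7 brakes on the pathway, Socs3 (0.95) and Ptpn1 (0.56) rose in marrow and none passed in spleen. Of 16 upstream sensors and adaptors, Tlr7 (1.15) and Tbk1 (0.40) rose in marrow, and in spleen Tlr8 (0.57) rose and Tlr3 (-1.01), Tlr9 (-0.59) and Traf3 (-0.38) fell. Of 17 interferon-induced GTPases none passed in marrow and 10 fell in spleen, with medians of -0.39 and -0.54. Of 32 further interferon-stimulated genes, Parp12 (-0.68) and Ifit1bl2 (-1.78) fell in marrow, and in spleen 11 fell, Ms4a4c (-0.92, adjusted p = 0.00788) with the smallest p, and Ifitm2 (0.32) rose. Ifit1bl1 and Ifit1bl2 lie inside the IFIT cluster; their spleen changes were both -0.64, and Ifit1bl1 passed (adjusted p = 0.0252).

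Other gene groups moved between the same libraries, and their part in the fall of the interferon-stimulated genes was not tested. Of 10 genes that glucocorticoids induce, 9 rose in each tissue. Ptprc fell by 0.35 on the log2 scale in spleen (adjusted p = 0.0281) and was at -0.15 in marrow (adjusted p = 0.525). Of 11 plasmacytoid dendritic cell markers, 1 fell in marrow (Cox6a2) and 2 in spleen (Pacsin1 and Spib), with medians of -0.11 and -0.03 and summed levels of 110 to 144 FPKM against 99.9 to 136 in marrow and 110 to 123 against 134 to 157 in spleen. Of 9 B cell markers, 4 fell in spleen (sums of 1280 to 1450 against 1500 to 1860 FPKM) and Fcer2a fell in marrow. All 9 lay below 0 in spleen, with a median of -0.48. In marrow 2 of the 9 lay below 0, with a median of 0.1. Of 10 monocyte markers, Chil3 and Fn1 rose in marrow and Ccr2 fell in spleen (sums of 2780 to 3550 against 2120 to 2370 in marrow and 297 to 516 against 295 to 434 in spleen). None of 9 T cell markers passed the test. Of 13 neutrophil markers only Csf3r passed, and it fell in spleen. The neutrophil median in spleen was 0.4, with 3 of the 13 below 0 (sums of 2350 to 5500 against 1830 to 4230 FPKM). Conventional dendritic cell markers had medians of -0.42 in marrow, where Flt3 rose and Zbtb46 fell among 6 tested, and -0.67 in spleen, where Flt3 rose and Cd209a fell among 7; their sums were 19.3 to 22.9 against 16 to 24.3 FPKM and 23.8 to 28.5 against 26 to 28.2. Of 5 plasma cell markers, Jchain and Prdm1 rose in marrow (sums of 331 to 440 against 205 to 247) and Prdm1 in spleen (419 to 646 against 324 to 482). The macrophage marker Spic fell in marrow, among 7 tested (sums of 57.4 to 92.9 against 58.2 to 96.8). Of 6 NK cell markers, Klrb1c rose in spleen, but the other 5 lay below 0 there. The NK cell median in spleen was -0.1 (sums of 142 to 195 against 163 to 197). The 13 genes of the mitochondrial genome, a sign of RNA quality, all lay above 0 in spleen with a median of 0.21, though none passed the test. Their share of fragments was 1.28% to 1.71% with hM3Dq and 1.19% to 1.35% with mCherry in spleen, and 0.740% to 0.830% against 0.653% to 0.796% in marrow, where their median was 0.00.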

How the data were processed

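Each deposited file holds 1 library as FPKM for 49585 Ensembl genes, per the file headers. The authors' tools, per the submitters' processing notes, were CASAVA 1.9, STAR 2.6.1a, featureCounts and edgeR 3.28.1 on GRCm38; the sources used here do not name the annotation release or strand setting. Genes were matched to GENCODE M21 (49326, 99.5%). FPKM multiplied by exon length gave whole reads, within 0.01, in all libraries for 27900 of 31821 genes above 0 (87.7%), and for 40 of the 44 members (not Cmpk2, Rsad2, Mx1 and Dtx3l). These reads served the filter and the scaling; for other genes they are rounded estimates, and genes with no M21 entry were left out. No count test was run.

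FPKM was divided by TMM factors (trims of 30% and 5%), 0.1 was added, and log2 values were fitted with limma 3.58.1 (R 4.3.3), with a trend of the spread, on genes with 10 or more reads in at least 4 libraries of the comparison. Tests were two-sided, adjusted by Benjamini-Hochberg over all genes tested, and called at an adjusted p below 0.05. On this scale changes of low genes are understated. Printed FPKM values are as deposited. The procedure was tested on simulated data. Replicates differed beyond counting noise (chi-square per degree of freedom 5.08 to 22.62), so no library was a copy.

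The members and all gene lists were chosen with earlier results of these data known. Values in every library are given for a fixed panel of members, for the 8 with the smallest p in each tissue and for members that went against the rest; of other lists, counts and some of the called genes are given, and 1 result is not reported here. Alternatives were other pseudocounts, filters and scalings, a robust spread, 1 fit of all libraries, a haemoglobin covariate, a replicate block and leaving out libraries. Promoter sequences are from RefSeq. Figures were drawn with Python 3.11.15 and matplotlib 3.10.9.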

Additional observations from a re-analysis of the deposited data

Results flagged for a closer look

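In 4 of the 176 sets of 4 libraries looked at (44 genes in 4 groups), 1 library stood far from the other 3 relative to the range of its group, which chance gives in about 1 set in 20. Ifit2 was at 10.7 FPKM in mCherry 4 of the marrow, where the other 3 were at 5.91 to 6.31. Dhx58 was at 10.5 FPKM in mCherry 4 of the spleen, against 8.2 to 8.56 in the others. Oas1g was at 2.14 FPKM in hM3Dq 5 of the spleen, against 1.61 to 1.66. Zbp1 was at 13.3 FPKM in mCherry 3 of the spleen, against 16.4 to 16.6. No member had an effect that differed between the tissues at an adjusted p below 0.05.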

How the results depend on the processing

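The medians of the members in marrow and spleen stayed below 0 in every alternative run, from -0.64 to -0.37 in marrow. The number of members called moved more. In marrow, 5 became 1 with no filter, 12 with 1 fit of all 16 libraries and 2 with hM3Dq 5 and 6 left out together, and 1 to 8 without 1 library. In spleen, 29 became 16 with no filter and 15 with 1 fit of all libraries, and 6 to 34 without 1 library. It was 20 with the haemoglobin covariate, 20 with no composition scaling and 20 with hM3Dq 6 and mCherry 2 left out together. The median difference between the tissues in mCherry was -0.50 with no composition scaling, and its count ran from 25 to 29 without 1 library. The interaction called 0 members in every alternative. Signs turned for 4 members in marrow, all with small changes: Ifi204 (0.05 without hM3Dq 8, 0.02 without mCherry 4, and -0.26 to 0.05 over all such removals), Ifi209 (-0.13 with the haemoglobin covariate, -0.18 without hM3Dq 5 and 6 together, and -0.05 to 0.18 over the removal of single libraries, below 0 without hM3Dq 5, hM3Dq 6 or mCherry 2), Lgals3bp (-0.17 to 0.01 over them, above 0 without mCherry 4) and Trim25 (0.01 with no composition scaling). The cause of these shifts was not tested for any alternative.

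With the replicate number as a block, 0 members were called for the interaction (median 0.03) and 29 between the tissues in mCherry (median -0.20). Libraries of the same number in both tissues deviated together to varying degrees (r = 0.01 to 0.47). The same number gave the highest r for hM3Dq 6 (0.47, against at most -0.14 with another number) and hM3Dq 7 (0.37 against 0.22). It also did for hM3Dq 8 (0.24 against 0.22) and mCherry 4 (0.15 against 0.05), but not for hM3Dq 5 and mCherry 1 to 3. Whether the numbers stand for the same mice is not settled by this, and the labels do not say. The main fits did not pair the libraries. No paired analysis was possible within a tissue because the hM3Dq and mCherry libraries share no number, and batch and virus cannot be told apart if batches followed the numbers. Transcripts of most interferon ligands were not detectable at this depth.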
